A study of Homo sapiens with 18 samples.

Results

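The MYC binding sites of the distal long arm of chromosome 5 (distal 5q) were taken as all peaks on chromosome 5 that start at or beyond the 112 Mb position (hg19, the build of all positions given), in any of 9 MYC ChIP-seq peak lists. Peaks were merged across lists where they overlapped by at least 1 bp. This gave 1312 regions, of 43222 on chromosomes 1 to 22 and X, and the rest of chromosome 5 held 1008. The limit is a position, but the stretch was picked with earlier results of these data known, its strong sites among them.

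The cells were MCF10A, an immortalised breast epithelial line, and every library came from cells that carried ectopic MYC (pBABE-hygro-MYC) and the PI3K mutant H1047R (pMN-IRES-GFP-PI3KH1047R). The hairpin plasmid, pLKO-tetON-puro, gave either a scramble hairpin (shSCR), hairpin 1 against G9a (shG9a_1) or hairpin 4 against G9a (shG9a_4). All 3 groups, the scramble control included, received doxycycline at 2 µg/mL for 72 h to induce the hairpin. Each group had 3 biological replicates per the series design, giving 3 shSCR and 6 shG9a libraries made with the MYC antibody N262. The lists hold binding of MYC in the presence of an expressed transgene, with no library of cells without it. They carry no expression values, so the level of G9a and the epithelial identity of the cells could not be checked from them.

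MYC is a transcription factor that binds DNA as a partner of MAX, mostly at active promoters and enhancers, and it both activates and represses genes. G9a (EHMT2) is a histone methyltransferase that places methyl groups on lysine 9 of histone H3, a mark linked with silenced chromatin. Distal 5q is reported to be gained in MCF10A lines, so that more copies of it than of the rest of the chromosome may be present. Copy number was not measured here.

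The lists differed in length before any region was considered, with 20118 to 34738 peaks in shSCR and 11168 to 17454 in 5 of the 6 shG9a libraries. The library shG9a_1 replicate 1 stood apart with 113 peaks, 8 of them on chromosome 5, and several results that rest on it are given with and without it. Heights at single named regions include it where it called them. Read depth is not listed. Reads stacked at each peak summit (the pileup) and the reads that the caller took as local background there were recovered from the deposited fold and p-value. In each library the lowest background that 1% or more of its peaks had in common, a quantity tied to its depth, was 0.361 to 0.488 reads in 7 libraries and 0.796 and 1.03 reads in shG9a_4 replicates 1 and 3.

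MYC peaks were denser on distal 5q than on the rest of chromosome 5 in all 9 libraries. In shSCR, distal 5q held 933, 1095 and 656 peaks, which is 13.6, 15.9 and 9.55 per Mb, where the rest held 6.09, 7.05 and 3.90 per Mb. In shG9a_1, distal 5q held 7, 391 and 447 peaks, or 0.102, 5.69 and 6.51 per Mb, against 0.00893, 2.05 and 2.38 per Mb. In shG9a_4, it held 386, 569 and 423 peaks, or 5.62, 8.28 and 6.16 per Mb, against 2.25, 3.38 and 2.34 per Mb. The ratio of the 2 densities was thus 2.23 to 2.45 in shSCR, 2.45 to 2.63 in shG9a_4, and 2.77 and 2.74 in shG9a_1 replicates 2 and 3. It was 11.4 in shG9a_1 replicate 1, where 7 of 8 peaks lay on distal 5q. Over the 8 other libraries the ratio was 2.50 ± 0.201 (SD, n = 8). The mean log2 ratio over all libraries was 1.56 ± 0.74 (SD, n = 9; two-sided exact sign-flip test p = 0.00391, the smallest possible; Benjamini-Hochberg adjusted over 11 tests, p = 0.0143), and it was above 0 in 9 of 9. Against all other chromosomes in place of the rest of chromosome 5 the mean log2 ratio was 0.59 (exact sign-flip p = 0.00391), a smaller contrast in the same direction. The libraries come from 1 cell line, so the p covers spread between libraries and not between stretches of genome.

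**Figure D1:**
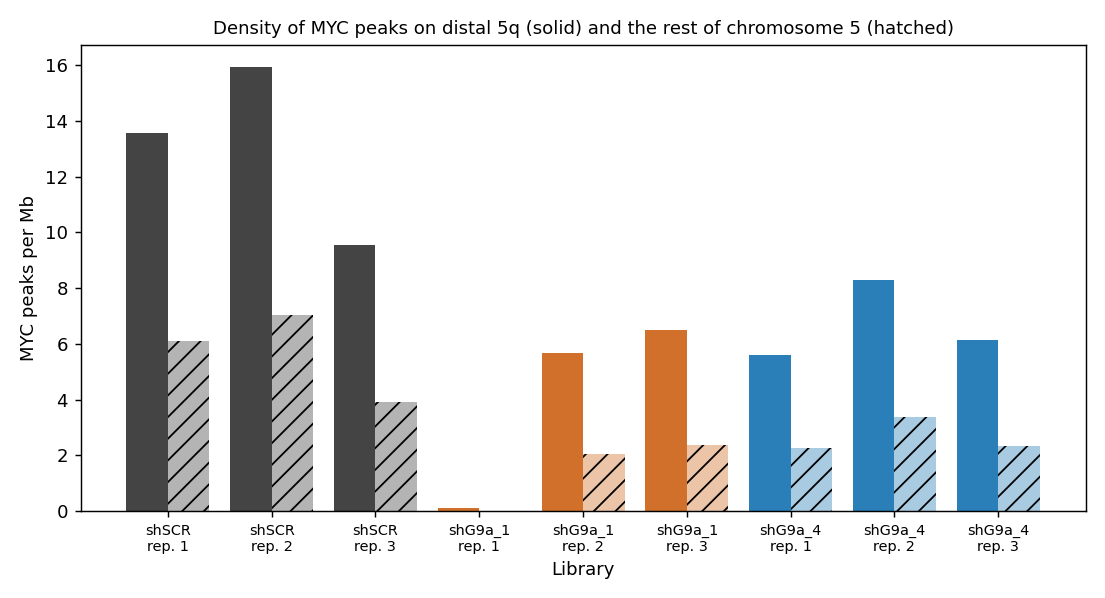
Bars give MYC peaks per Mb (y axis) in each of the 9 libraries (x axis), solid for distal 5q and hatched for the rest of chromosome 5. The solid bar is the taller one in every library, from 0.102 in shG9a_1 replicate 1, where both bars are near 0, to 15.9 in shSCR replicate 2.

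Regions were closer together on distal 5q. The median gap between neighbouring merged regions was 14.5 kb, against 33.4 kb on the rest of chromosome 5, and 43.8% of gaps against 33.5% were under 10 kb. Among regions called in all 3 shSCR libraries the median gaps were 44.1 kb and 119.6 kb. The widest empty stretch was 1.66 Mb on distal 5q and 4.35 Mb on the rest. Leaving the latter out of the length of the rest gave a mean log2 density ratio of 1.51, so it carried little of the difference. Along distal 5q the regions were uneven. The densest 5 Mb window, 175 to 180 Mb, held 157 regions, and the windows at 130 to 135 and 170 to 175 Mb held 148 and 146. The sparsest full windows held 25 (160 to 165 Mb), 39 (115 to 120 Mb) and 41 (125 to 130 Mb).

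**Figure D2:**
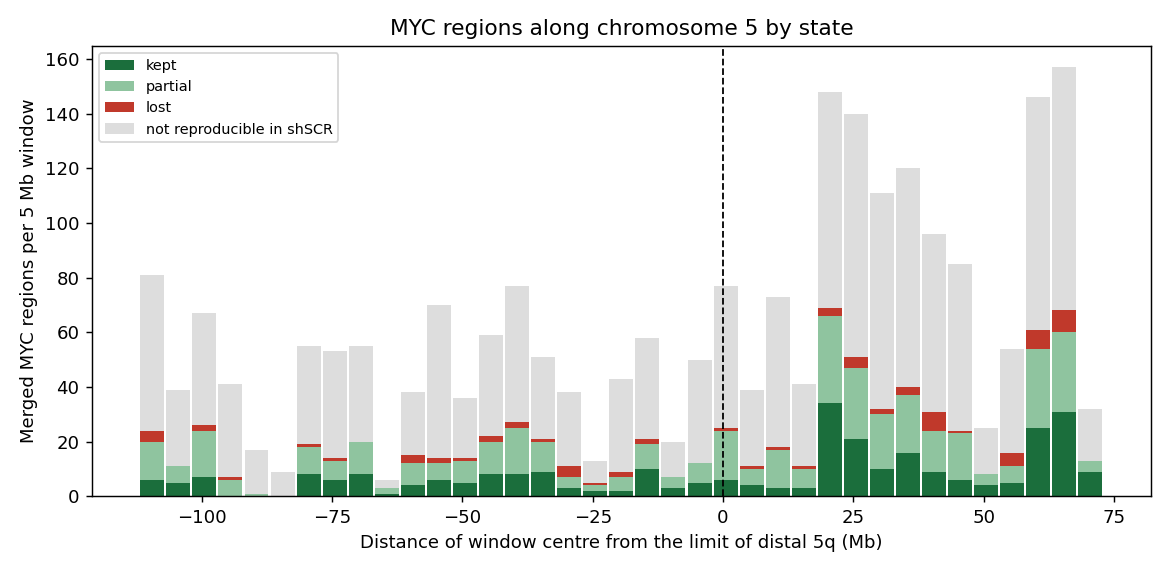
Stacked bars count merged MYC regions in 5 Mb windows along chromosome 5 (y axis) against the distance of the window from the limit of distal 5q in Mb (x axis), split by the state of the region in the shG9a libraries. Windows to the right of the dashed limit reach 157 regions and also fall to 25.

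The local background at MYC peaks was higher on distal 5q than on the rest of the chromosome in every library. Its mean over distal 5q peaks, divided by that over the other peaks of chromosome 5, came to 1.41, 1.46 and 1.41 for the shSCR libraries. For shG9a_1 it was 1.83, 1.42 and 1.54, and for shG9a_4 it was 1.49, 1.40 and 1.45. The 8 libraries other than shG9a_1 replicate 1 lay close together, at 1.45 ± 0.0483 (SD, n = 8). The mean log2 ratio was 0.57 ± 0.12 (SD, n = 9; two-sided exact sign-flip p = 0.00391, adjusted p = 0.0143). Peaks at the lowest background of their library were rare on distal 5q. They made up 0.224 to 1.53% of distal 5q peaks in these 8 libraries and 4.78 to 8.33% of peaks on the rest of chromosome 5. In the 9th, none of its 8 chromosome 5 peaks was at the lowest background. Since the background is known only where a peak was called, these values describe the surroundings of MYC sites and not the whole arm. The control behind each list is not given in the sources used here, so the background may be counted from the ChIP reads near a site or from input reads. Against all other chromosomes the mean log2 background ratio was 0.39 (exact sign-flip p = 0.00391). The part of copy number in these values was not tested.

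The higher background did not begin at the limit. In 10 Mb windows, the mean over 8 libraries, relative to all peaks before the limit, was 0.854 to 1.06 from 0 to 110 Mb, leaving aside the window at 20 to 30 Mb (0.804, from the 7 libraries with peaks there), and 1.11 ± 0.0733 (SD, n = 8) from 110 to 120 Mb. From 120 Mb to the end it was 1.40 to 1.53 in every window. A split at 118 Mb, chosen after these windows were seen and therefore given with no test, left 61 regions from 112 to 118 Mb, where the background was 1.04 ± 0.0966 (SD, n = 8), from 14 to 47 peaks a library. Over the 1251 regions from 118 Mb on it was 1.46 ± 0.0471 (SD, n = 8). The first stretch thus matched the rest of the chromosome within the spread of the libraries, and the second lay above it in all 8.

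**Figure D3:**
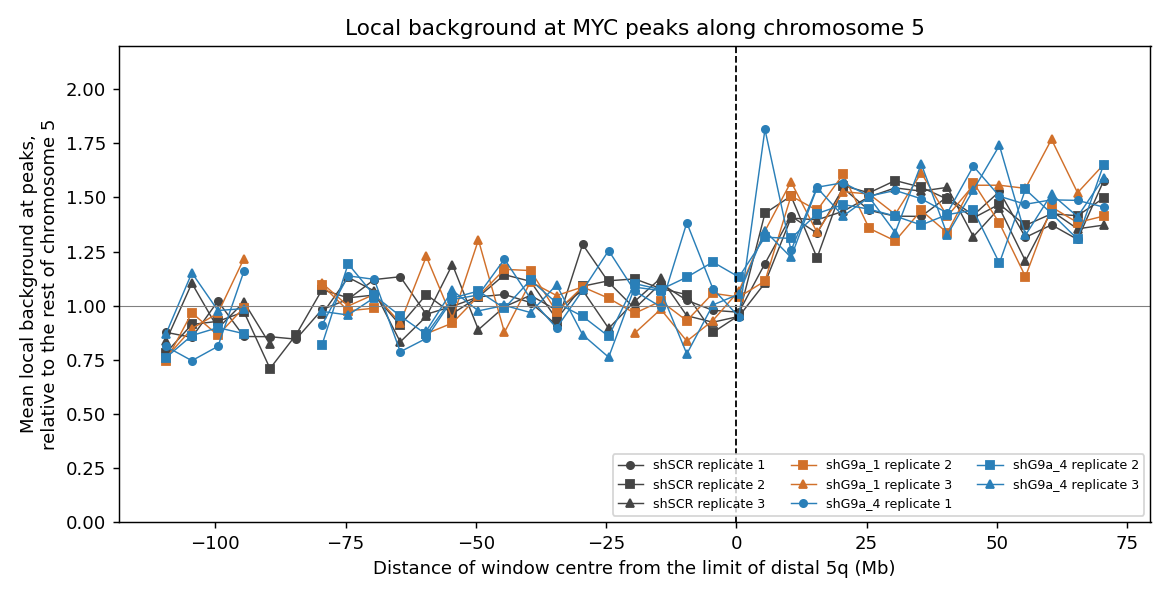
Points give the mean local background at MYC peaks in 5 Mb windows, relative to the mean over the rest of chromosome 5 in the same library (y axis). The x axis is the distance of the window centre from the limit of distal 5q in Mb. A library is not drawn in windows where it had few peaks, and shG9a_1 replicate 1 is not drawn. The means without shG9a_1 replicate 1 are at most 1.07 up to the window that spans the limit. They are 1.33 in the next window and 1.36 to 1.53 beyond it.

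Set beside other stretches measured in the same way over 8 libraries, the background of distal 5q was above that of chromosome 20, whose mean was 1.05 times that of the rest of chromosome 5, and below that of chromosome 1 from 150 Mb on, at 1.70 times. By the same ratio of means, all other chromosomes together stood at 1.12, chromosome 10 at 1.42 and distal 5q at 1.45. By the ratio of medians, which single peaks of very high background move less, all others stood at 1.03 ± 0.0560, chromosome 10 at 1.00 ± 0.0504 and distal 5q at 1.51 ± 0.0909 (SD, n = 8 for each).

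Pileups were taller on distal 5q, and the fold over background was not. Median pileup at distal 5q peaks was 14, 14 and 12 reads for shSCR, 16, 11 and 13 for shG9a_1, and 16, 14 and 19 for shG9a_4. At the other peaks of chromosome 5 it was 11, 12 and 11, then 11, 9 and 12, then 13, 12 and 15 reads. Distal 5q was the higher in 9 of 9 libraries, by a mean log2 ratio of 0.28 ± 0.13 (SD, n = 9; two-sided exact sign-flip p = 0.00391, adjusted p = 0.0143). A peak is listed only when its pileup passes its own background, so the 2 quantities are not independent at called peaks.

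Fold, the authors' ratio of pileup to background with 1 added to each, had a distal 5q median of 6.65, 6.57 and 6.93 in the shSCR lists, against 6.37, 6.79 and 7.06 on the rest. The shG9a_1 medians were 6.79, 6.30 and 6.31 on distal 5q against 7.52, 6.38 and 6.84, and those of shG9a_4 were 5.83, 6.83 and 6.30 against 6.13, 7.06 and 6.65. The difference within a list was above 0 only in shSCR replicate 1, and its mean was -0.253 ± 0.283 (SD, n = 9; two-sided exact sign-flip p = 0.0273, adjusted p = 0.0501). Without shG9a_1 replicate 1 the mean was -0.194 (exact p = 0.0547). A drop in fold on distal 5q was therefore not established beyond the spread of the libraries.

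Ranked by q-value within its own list, the median distal 5q peak stood 2.11 ± 3.37 percentile points (SD, n = 9) above the median peak of the rest of chromosome 5. It was above in 7 of 9 libraries (two-sided exact sign-flip p = 0.0977, adjusted p = 0.119), with differences from -4.25 in shG9a_1 replicate 3 to 7.77 in shSCR replicate 1. This call depended on the setting: without shG9a_1 replicate 3 the difference was 2.91 points (exact sign-flip p = 0.0234), and with only peaks of −log10 q of at least 5 it was 5.15 (exact sign-flip p = 0.00781). The median peak was wider on distal 5q than on the rest in each of the 8 libraries other than shG9a_1 replicate 1, with medians of 227 to 285 bp against 214 to 264 bp. The margin ran from 238 against 237 bp in shG9a_1 replicate 3 to 247 against 224.5 bp in shSCR replicate 1. In shG9a_1 replicate 1 the order was the reverse, at 69 and 87 bp.

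Some of the strongest MYC regions lay on distal 5q. The stretch was picked with its strong sites known, so their number is not an independent result. The strength of a region is the q-value percentile of its best peak, averaged over the 3 shSCR lists. Among the 14209 regions called in all 3 shSCR libraries, distal 5q held 470 (3.31%) and the rest of chromosome 5 held 311. It held 41 of the 1000 strongest (4.10%), 8 of the 100 strongest and 2 of the 10 strongest, where the rest of chromosome 5 held 19, 2 and 0. These counts describe 1 ranking and carry no test, and q-values rise with the number of reads at a site.

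The strongest region of distal 5q, at chr5:154134002-154135584, had a fold of 61.7, 56.1 and 72.8 in the shSCR lists, 10.0, 59.2 and 67.4 in those of shG9a_1, and 23.2, 81.4 and 57.4 in those of shG9a_4. Its pileup was 159, 195 and 151 reads for shSCR, 18, 99 and 128 for shG9a_1, and 125, 147 and 155 for shG9a_4. By both values the groups overlapped, and 4 of the 6 shG9a folds lay within or above the shSCR range. Its summit height, the pileup divided by the lowest background of the library, was 355, 399 and 370.5 for shSCR, 49.8, 267 and 265 for shG9a_1, and 157, 308 and 150.3 for shG9a_4. By height, which scales each library to its lowest background, every shG9a value was under every shSCR value, with means of 375 ± 22.5 (SD, n = 3) and 199.7 ± 97.4 (SD, n = 6; exact permutation, two-sided, p = 0.0238, the lowest that 9 libraries allow; adjusted over 10 regions, p = 0.0510). The lowest values were in shG9a_1 replicate 1, the library with 113 peaks, and in the 2 shG9a_4 libraries with the highest background.

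The next, at chr5:170814338-170815998, had summit heights of 270.2, 276 and 289 for shSCR, 44.3, 203 and 193 for shG9a_1, and 104, 169.9 and 115 for shG9a_4. The groups again did not overlap, with means of 279 ± 9.86 (SD, n = 3) and 138 ± 61.0 (SD, n = 6; exact permutation p = 0.0238, adjusted p = 0.0510). The third, at chr5:131892141-131893067, had 239, 260.1 and 228 in shSCR, against 30.5 to 168 in the 6 shG9a libraries. The other 7 of the 10 strongest start at 140998382, 172756436, 158636121, 175815064, 138609605, 145561582 and 176873177.

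Across these 10 regions the shG9a mean height was 0.472 to 0.718 times the shSCR mean. These means include shG9a_1 replicate 1 at ranks 1, 2, 3, 7, 8 and 9, which it called, and not at the others. Its heights there, 30.5 to 49.8, were the lowest at each rank, and means without it were not computed. For 7 of the 10 regions every shG9a value was under every shSCR value (exact permutation p of 0.0238 or 0.0357, the smallest possible for each; adjusted p = 0.0510). The exceptions started at 172756436 (exact permutation p = 0.25), 175815064 (p = 0.0714) and 145561582 (p = 0.119). None passed an adjusted limit of 0.05. The 10 were ranked on shSCR values, so the shSCR side of each difference also chose them. Tall sites had almost the same highest pileup in 8 libraries, 242 to 263 reads in each, while the lowest background differed between them, and the part of this in the lower heights of shG9a was not tested.

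**Figure D4:**
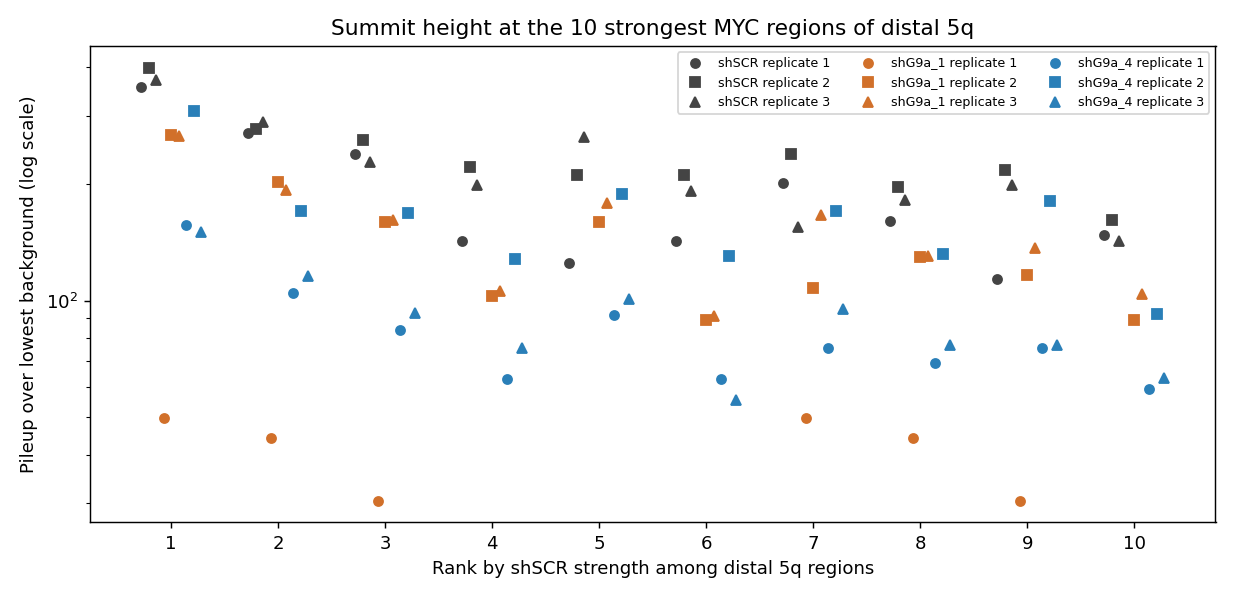
Points give the summit height (pileup over the lowest background of the library, log scale) of the 10 strongest distal 5q regions, ranked by shSCR strength (x axis), in each library that called them. At rank 1 the shSCR points lie at 355 to 399 and the shG9a points at 49.8 to 308, and the groups overlap at 3 of the 10 ranks.

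The second question was whether G9a hairpins changed MYC calls on distal 5q, and whether they did so otherwise than on the rest of the chromosome. Fewer distal 5q peaks were listed in every shG9a library than in any shSCR library, 370.5 ± 190.2 (SD, n = 6) against 895 ± 222 (SD, n = 3; exact permutation, two-sided, p = 0.0238, the lowest that 9 libraries allow; adjusted p = 0.0501). The adjusted value lies just above 0.05, and no design of 3 against 6 libraries can lower the unadjusted one. Without shG9a_1 replicate 1 the shG9a mean was 443 ± 74.6 (SD, n = 5; exact permutation p = 0.0357). The whole lists were shorter as well, with 113 peaks in that library and 11168 to 17454 in the other shG9a libraries, against 20118 to 34738 in shSCR. With each of the 8 longer lists limited to its 11168 top peaks, distal 5q peak number differed by -15.2 (exact permutation p = 0.25). A fall in calls particular to distal 5q was thus not detected. As a share of all chromosome 5 peaks, distal 5q held 57.8, 58.1 and 60.0% for shSCR, 87.5, 63.0 and 62.7% for shG9a_1, and 60.5, 60.1 and 61.8% for shG9a_4. The shares did not overlap between the groups (exact permutation p = 0.0238, adjusted p = 0.0501), and the shG9a mean was 61.6 ± 1.28% (SD, n = 5) without shG9a_1 replicate 1. The call was lost with only peaks of −log10 q of at least 5 (5.08 points, exact permutation p = 0.0714) and with only peaks of fold of at least 5 (6.39 points, exact permutation p = 0.0952). With the 8 longer lists limited to their 11168 top peaks the difference in share was 0.366 percentage points (exact permutation p = 0.679). Without shG9a_1 replicate 1 but at full length it was 2.97 points (exact permutation p = 0.0357), so the difference was not detected once the lists were equally long.

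Of the 1312 regions, 470 (35.8%) were called in all 3 shSCR libraries and are named reproducible here; over all chromosomes 32.9% were. Of these, 44 (9.36%, Wilson 95% interval 7.05 to 12.3%) were lost, that is, called in none of the 6 shG9a libraries, where the share over all chromosomes was 9.49%. A total of 184 (39.1%, interval 34.8 to 43.6%) were kept, that is, called in at least 5, where the overall share was 36.9%. The other 242 (51.5%) were partial, against 53.6% overall. On the rest of chromosome 5, 29 of 311 (9.32%) were lost and 108 (34.7%) were kept. None of the 58 distal 5q regions found in no shSCR list was gained, meaning called in at least 2 of 3 libraries of each hairpin, against 0.204% of such regions overall. The shares of distal 5q were thus near those of all chromosomes. Intervals cover counting error only.

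Single libraries moved the counts of lost and of kept regions. Without shG9a_1 replicate 1, 44 were lost, 174 partial and 252 (53.6%) kept, there called in at least 4 of 5 shG9a libraries. By the same rule 154 (49.5%) were kept on the rest of chromosome 5, and 7423 of 14209 over all chromosomes. Leaving out shSCR replicate 1 gave 68 lost of 526 reproducible regions (12.9%). On the rest of chromosome 5 it was 14.7%, and over all chromosomes 2254 of 16120. Leaving out shSCR replicate 3 gave 178 of 698 (25.5%), against 27.6% on the rest and 5149 of 21334 over all chromosomes. Leaving out shG9a_4 replicate 2 gave 67 of 473 (14.2%), against 15.1% on the rest and 2087 of 14253 over all chromosomes. With the 8 longer lists at equal length, 2 of 236 reproducible regions (0.847%) were lost and 183 (77.5%) were kept (there, called in at least 4 of 5 shG9a libraries). On the rest of chromosome 5, 0 of 136 were lost and 104 (76.5%) kept. Over all chromosomes, 79 of 6439 were lost and 5162 kept.

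The lost regions of distal 5q were weak, as were those over all chromosomes. In the shSCR lists the median fold was 6.20 for lost, 7.56 for partial and 13.6 for kept regions. Over all chromosomes it was 6.21, 7.75 and 13.6. The median merged widths were 288, 461 and 744 bp in that order, against 334, 467 and 744 bp over all chromosomes. Width was merged over every list that called a region, so regions called in more lists are wider in part by construction. The strongest lost region, at chr5:121737948-121738449, had folds of 13.8, 15.0 and 10.6 and pileups of 26, 29 and 19 reads in the shSCR libraries. It stood above the others, since the second, at chr5:153784798-153785044, had folds of 6.20, 7.73 and 9.58, and the third, at chr5:169758195-169758537, had 7.04, 8.60 and 7.78. The other 7 of the 10 strongest lost regions start at 150582329, 172411340, 136834913, 179758993, 136955261, 172338021 and 118990813. Over 5 Mb windows the lost share had no test. It was 22.6% (7 of 31) at 150 to 155 Mb and 31.2% (5 of 16) at 165 to 170 Mb, and 0 to 11.8% in the other windows from 110 Mb on, against 9.36% over distal 5q. In the windows before 110 Mb that held reproducible regions it ran from 0 to 36.4% (4 of 11, at 80 to 85 Mb), so such shares were not particular to distal 5q.

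Single shG9a libraries called a slightly larger share of the reproducible regions on distal 5q than on the rest of chromosome 5, a difference that did not pass the test on the full lists. Of the 470 reproducible distal 5q regions, shG9a_1 libraries called 1.49, 60.4 and 66.8%, and shG9a_4 libraries called 60.0, 78.1 and 65.7%. On the rest of chromosome 5 the shares were 0.322, 55.3 and 59.2%, then 59.5, 78.5 and 64.0%. The difference was 2.64 ± 3.09 percentage points (SD, n = 6) and above 0 in 5 of 6 libraries (two-sided exact sign-flip p = 0.0625, adjusted p = 0.0859). It passed 0.05, at the lowest p that 6 libraries allow, with only peaks of −log10 q of at least 5 (4.53 points), with the limit at 125 Mb (4.19 points), and without shSCR replicate 1, 2 or 3 (3.83, 2.81 and 2.51 points). Compared within 5 classes of shSCR strength it was 0.822 points (exact sign-flip p = 0.531) and above 0 in 3 of 6. In the weakest class 29.6% of 98 distal 5q regions and 31.0% of 58 others were lost, and in the strongest class 0 of 105 and 0 of 52 were. Strength itself uses the shSCR calls.

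**Figure D5:**
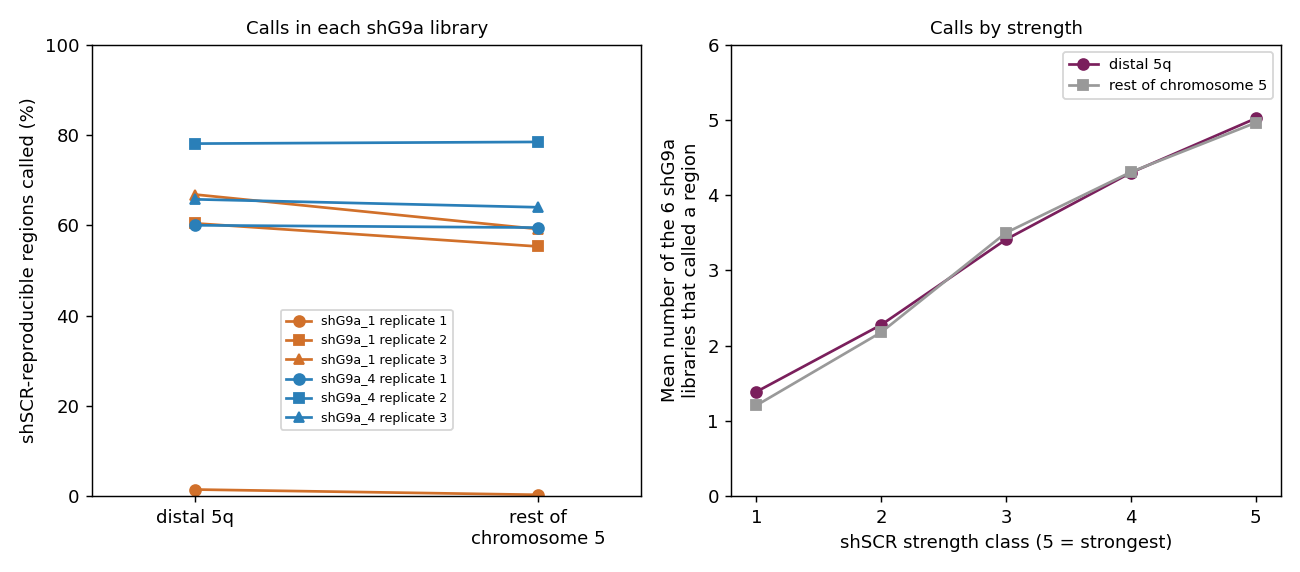
Left, the percentage of shSCR-reproducible regions that each shG9a library called on distal 5q and on the rest of chromosome 5 (y axis, 1 line a library); right, the mean number of the 6 shG9a libraries that called a region (y axis) by shSCR strength class (x axis, 5 the strongest). On the left distal 5q is the higher by -0.371 to 7.64 percentage points, and on the right both stretches rise from under 2 libraries to about 5.

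By hairpin, 109 of the 470 reproducible distal 5q regions (23.2%, against 25.3% overall) were called in no shG9a_1 library and 63 (13.4%, against 13.5% overall) in no shG9a_4 library. At least 2 of 3 libraries called 237 (50.4%, 47.5% overall) with shG9a_1 and 327 (69.6%, 68.8% overall) with shG9a_4. The shG9a_1 counts include replicate 1, which called 7 of the 470. In all 9 libraries, 7 distal 5q regions and 1 region of the rest of chromosome 5 were called.

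At the 184 kept distal 5q regions, summit heights were lower in each shG9a library than in any shSCR library, though the adjusted p did not pass 0.05. The median summit height was 64.7, 75.8 and 56.4 for shSCR, 40.5 and 41.5 for shG9a_1 replicates 2 and 3, and 26.4, 46.2 and 25.2 for shG9a_4. Replicate 1 of shG9a_1 called 7 of the 184 and was left out. The means were 65.65 ± 9.70 (SD, n = 3) and 35.9 ± 9.51 (SD, n = 5; exact permutation, two-sided, p = 0.0357, the lowest that 8 libraries allow; adjusted p = 0.0561). The lowest were shG9a_4 replicates 1 and 3, whose lowest background was the highest of all libraries, and the part of depth in this was not tested. Kept regions of the rest of chromosome 5 had medians of 53.6, 63.5 and 51.5 in shSCR and 20.4 to 42.0 in the same 5 shG9a libraries. The distal 5q median was the higher in each of the 8 libraries, by a mean log2 ratio of 0.22 in shSCR and 0.28 in shG9a. That ratio differed between the groups by 0.06 (exact permutation p = 0.25, adjusted p = 0.275), so no difference between distal 5q and the rest in the response to the hairpins was detected.

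The widest distal 5q region, at chr5:172753905-172756362, spanned 2458 bp and lay next to the region that starts at 172756436. The other widest ones, of 2344 and 2335 bp, start at 142782831 and 149109522, and all 3 were called in 8 libraries, shG9a_1 replicate 1 being the exception. At the limit itself, the first region inside starts at 112043617, had 1 peak of 7 reads, and was called in shG9a_1 replicate 2 alone. The next 2 inside start at 112073419 and 112196575, with shSCR folds of 5.27 to 10.7 and 6.81 to 18.8. The nearest 3 outside start at 111755476, 111674738 and 111674391, and their folds were 4.41 to 7.85 in the lists that called them.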

How the data were processed

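MACS2 2.1.0, Picard 2.7.1, SAMtools 1.3 and STAR 2.5.2a are the tools that the submitters' processing notes name. What settings and control lie behind each list is not given in the sources used here. The deposited lists hold, per peak and library, a whole-number score, the fold as a ratio, a −log10 p-value and a −log10 q-value, all the authors' values. The 9 DNA inputs were not analysed here. No pair of libraries shared an identical row.

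A whole-number pileup and its background were solved from fold and p for 100% of peaks (tolerance 0.001 on the −log10 p scale), with Python 3.11.15, numpy 2.4.6, pandas 2.3.3 and scipy 1.17.1. On simulated data 100% of 19929 pileups were recovered, and the totals of each state over 6000 regions matched those planted. States were not compared region by region, and the simulated regions lay too far apart to merge with neighbours. Tests were exact permutations over libraries (84 splits) or exact sign flips, two-sided, with Benjamini-Hochberg adjustment over 11 tests. Densities on distal 5q used the span from the limit to the end of its last region, 68.7 Mb. Those on the rest used the span from the start of its first region to the limit, 112 Mb. The limit of distal 5q was position 112000000. Alternatives tried were a stricter q-value, a stricter fold, equal list lengths, a limit at 125000000, all other chromosomes as the comparison, merging within 500 bp, 10 strength classes, the median background, a block for replicate number, and each library left out in turn. Leaving out the widest empty stretch was added after seeing the data.

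The regions named are the 10 of highest shSCR strength, the 10 strongest lost, the 3 widest, those nearest the limit and the densest 5 Mb window. The stretch, these lists and the tests were chosen with earlier results of these data known. Genes and sequences at the regions were not analysed here.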

Additional observations from a re-analysis of the deposited data

Results flagged for a closer look

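Among the 6 shG9a libraries, shG9a_1 replicate 1 stood far from the others in 4 measures. It had 7 distal 5q peaks, a distal 5q share of 87.5% of chromosome 5 peaks, a log2 density ratio of 3.51 and a log2 background ratio of 0.87. All 4 rest on the same 8 peaks. Of the 5 shG9a libraries with pileups at kept regions, shG9a_4 replicate 2 stood apart with a log2 ratio of distal 5q to rest of 0.14, where the others had 0.30 to 0.32. Chance sets about 1 in 20 groups of this size apart in this way.

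The share of reproducible regions called at like strength, distal 5q minus rest, was above 0 in the 3 shG9a_1 libraries (1.06, 1.86 and 5.00 percentage points) and below 0 in the 3 shG9a_4 libraries (-1.62, -1.06 and -0.303). The hairpins differed by 3.63 points (two-sided exact permutation p = 0.1, the smallest that 3 against 3 allows).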

How the results depend on the processing

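The density, background and pileup ratios kept their direction and their side of the 0.05 threshold (unadjusted) in all alternatives run, leave-one-out included, which gave log2 values of 1.32 to 1.61, 0.53 to 0.58 and 0.25 to 0.30. Against all other chromosomes the density ratio was 0.59 and the background ratio 0.39, the lowest values of any alternative. Of 233 comparisons with an alternative, 176 kept their direction and their side of the threshold or stayed within 1.5 times.

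With only peaks of −log10 q of at least 5, the distal 5q share differed by 5.08 points, fold by -0.135, percentile by 5.15 and called share by 4.53. Called share at like strength differed by -0.701 and the kept-region log2 ratio by -0.0085. There 29 of 351 reproducible regions were lost, against 1013 of 10311 over all chromosomes. With a fold of at least 5, the share differed by 6.39, fold by -0.121, percentile by 3.55, called share at like strength by -0.555 and the kept-region ratio by -0.0445. At equal list lengths, peak number differed by -15.2, share by 0.366, fold by -0.328 and called share at like strength by -1.21. There 236 regions were reproducible, 2 lost, 51 partial and 2 gained, in part because that setting leaves fewer peaks. On the rest of chromosome 5, 136 were reproducible, 0 lost, 32 partial and 2 gained. With the limit at 125 Mb, fold differed by -0.193, percentile by 3.14 and called share by 4.19. Against all other chromosomes, fold differed by -0.132, percentile by 3.60, called share at like strength by -0.456 and the kept-region ratio by -0.0243. The call was lost for share in the first 3 of these settings, for fold in all 5, and for peak number at equal list lengths. It was gained for percentile in the 4 settings other than equal list lengths, and also without shG9a_1 replicate 3. It was gained for called share with the q-value limit, with the limit at 125 Mb and without each shSCR library. Apart from the shorter lists, the cause was not tested.

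With the replicate number as a block, exact permutation p was 0.0741 for peak number (-524) and for share (7.29) and 0.111 for height at kept regions (-29.7). Each is the smallest value its rearrangements allow. There were 27 for peak number and share, and fewer for height, where shG9a_1 replicate 1 was left out. Over 292 kept regions, the correlation was -0.202 to 0.194 for 7 pairs of the same number and -0.194 to 0.202 for 14 pairs of other numbers. The ranges mirror each other exactly, as values taken relative to a group mean would. They are therefore not the agreement of heights between libraries, and they cannot decide on pairing. The numbers were not read as pairs.

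Leaving out any 1 shSCR library lost the call for peak number, share and kept-region height, since fewer splits remain. The call for kept-region height was also lost without any 1 shG9a library other than shG9a_1 replicate 1 (exact permutation p = 0.0571 each). That is the smallest value the remaining splits allow, so this loss was fixed in advance. Leaving out 1 library at a time gave peak number differences of -644 to -424, share 2.97 to 8.46, fold -0.320 to -0.194, percentile 1.41 to 2.91, called share 1.64 to 3.83, called share at like strength -0.0139 to 1.66, kept-region height -34.3 to -24.6 and kept-region log2 ratio 0.01 to 0.09. Reproducible regions then numbered 470 to 698, lost 44 to 178, kept 182 to 252, partial 174 to 335 and gained 0 to 1. Over all chromosomes, 14209 to 21334 were reproducible and 1348 to 5149 lost in the same settings.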
